A study of Mus musculus with 19 samples.

Results

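Messenger RNA of 10 genes through which killer T cells deliver death signals and shield themselves from their own weapons was followed in CD8 T cells of C57BL/6 mice, over 7 groups with 19 libraries in all. The genes were chosen by name: the death ligands Fasl and Tnfsf10 and the death receptor Fas, the protease inhibitors Serpinb9, Serpinb6b and Serpina3g, and the granule proteins Nkg7, Lamp1, Ctsw and Srgn. All 10 were found among the 53656 genes listed, and all 10 passed the filter on low counts in every comparison.

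The cells carried transgenic receptors: the SV40-I receptor is specific for SV40 large T antigen, and the OT-I receptor for ovalbumin. Ex vivo groups held 3 libraries each. They were naive SV40-I cells (CD44 low), SV40-I cells (Thy1.1) and OT-I cells (Ly5.1) taken from malignant liver lesions at days 20 to 21 (late SV40-I and late OT-I), and SV40-I cells taken from such lesions at days 8 to 9 and sorted as marker-high or marker-low by PD1, LAG3 and CD39. Cultured groups held 2 libraries each of SV40-I cells activated through CD3 and CD28, grown in IL-2 and sorted for GFP after retroviral transfer of TOX with GFP (TOX-GFP) or of GFP alone (GFP); every cultured library thus carries the activation, the cytokine and a vector. The labels give no genotype, yet column headings of the deposited tables hold the letters KO for marker-low and WT for marker-high libraries, so gate and genotype cannot be told apart. All libraries, those titled as from liver lesions included, have splenocytes as their source.

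Cytotoxic T cells kill by 2 routes. On the contact route, FASL (Fasl) and TRAIL (Tnfsf10) on the T cell engage death receptors on the target, and an activated T cell that keeps FAS on its own surface can be killed by the same ligand. On the granule route, granzymes and perforin are stored on the proteoglycan serglycin (Srgn) in secretory lysosomes whose membrane holds LAMP1 (CD107a) and NKG7, and serpins in the cytosol trap proteases that leak. Cells that face antigen for a long time in a tumour may enter a state called exhaustion, in which the transcription factor TOX is high.

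At days 20 to 21, SV40-I cells held 618 ± 80.6 CPM of Fasl and 1.67 ± 0.559 CPM of Fas (SD, n = 3), and OT-I cells 359 ± 47.0 CPM of Fasl and 37.0 ± 3.16 CPM of Fas (SD, n = 3). Against naive cells, 8 of the 10 genes rose in late SV40-I cells and Fas fell, where 18% of all genes tested were called. In late OT-I cells 7 were higher and none lower, where 7.35% were called. All naive cells carried the SV40-I receptor, so receptor and lesion state cannot be told apart in late OT-I against naive cells. Among the serpins, the group mean of Serpina3g was highest in late SV40-I cells and that of Serpinb9 in late OT-I cells. Lamp1 stood apart from the other granule genes, with its highest level in culture. Throughout, a level is in CPM (a gene's count scaled to a fixed library total), an error is an SD over libraries unless an SE is named, and a change is edgeR's log2 fold change, called when its Benjamini-Hochberg adjusted p over all genes of the comparison was under 0.05.

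**Figure D1:**
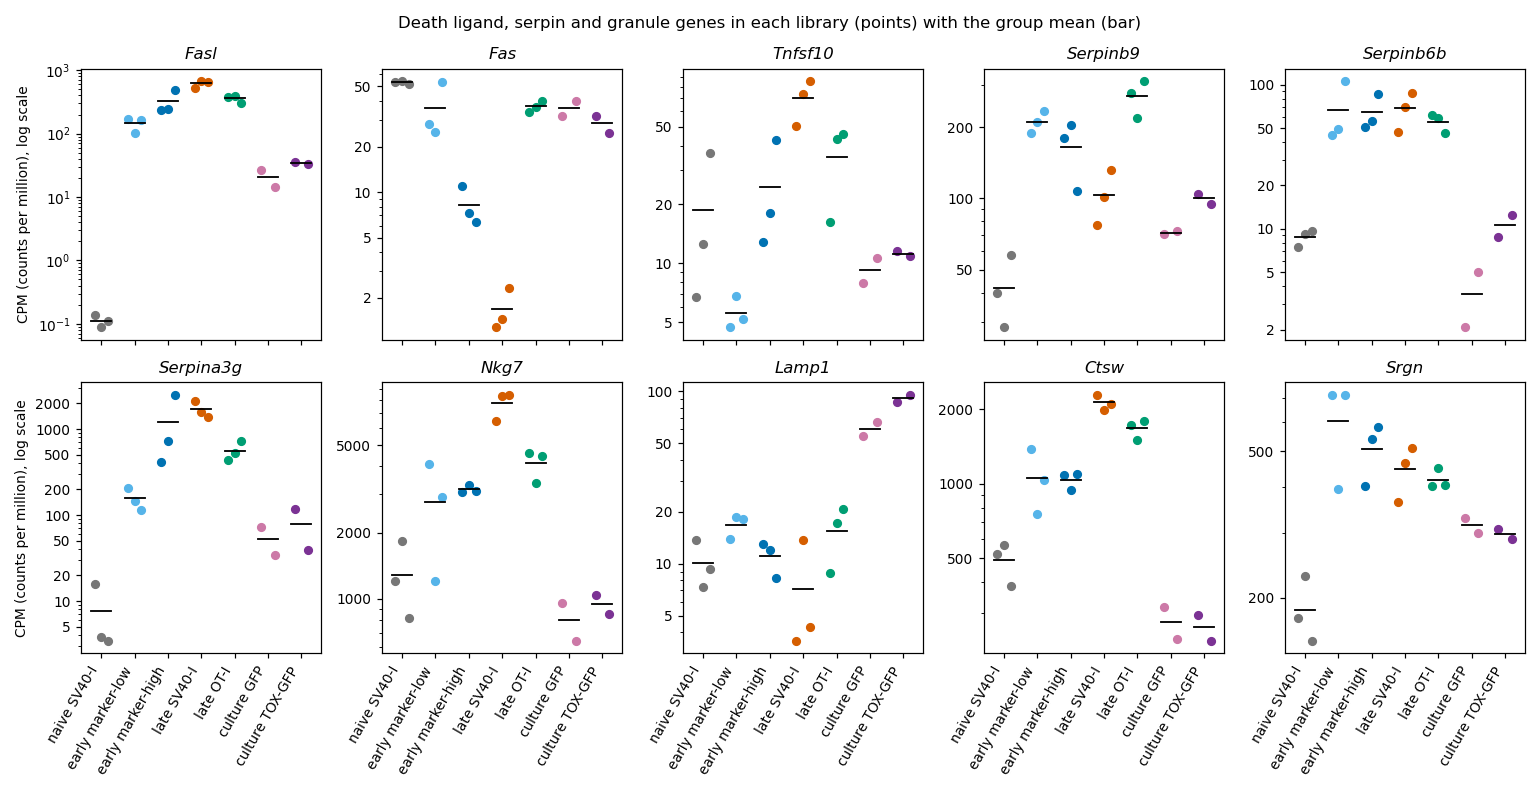
Each panel shows 1 gene on a log axis of CPM with its own range; points are libraries in the 7 groups and bars are group means. Fas is lowest in the 3 late SV40-I libraries (1.27 to 2.31 CPM), Fasl is lowest in the naive libraries, and Lamp1 is highest in the 4 cultured libraries (55 to 95.6 CPM).

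Library totals ran from 37006508 to 54195918 counts, so that the limit of 3 counts stood at 0.0554 to 0.0811 CPM. The summed level of 5 CD8 T cell markers was 4018 to 18756 CPM. Macrophage markers (8 genes) summed to 4038 to 5971 CPM in marker-high, 731 to 8715 in marker-low, 57.2 to 1092 in late SV40-I, 321 to 678 in late OT-I, 114 to 288 in naive and 3.88 to 7.49 CPM in cultured libraries. Hepatocyte markers (8 genes) reached 894 and 1507 CPM in late OT-I libraries 2 and 3 and 1267 CPM in late SV40-I library 2, against at most 50.1 CPM in the other libraries. Natural killer cell markers (5 genes) summed to 114 to 663 CPM in the lesion groups and 2.55 to 22.8 CPM elsewhere. Ncr1, a gene of that list, had a highest group mean of 14.2 CPM, in marker-low cells. The other genes of the list thus made up most of the lesion sums, and the part of natural killer cell RNA was not tested. Tox, the check of the vector, stood at 137 CPM in TOX-GFP and 17.6 in GFP cells, where reads from the vector may be counted as Tox; it stood at 831 CPM in late SV40-I, 25.0 in late OT-I, 556 in marker-high, 91.3 in marker-low and 104.5 CPM in naive cells (group means). In bulk RNA, fewer cells of a type and less RNA per cell cannot be told apart.

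The counts of called genes by comparison were as follows. Against naive cells, late SV40-I cells had 8 of 10 genes higher and 1 lower, where 18% of all 16404 genes were called (11.1% higher, 6.86% lower); libraries did not overlap for 9 genes, against 38.1% of all genes tested. Late OT-I cells had 7 higher and 0 lower by edgeR (0 lower also at an unadjusted p under 0.05 and by DESeq2), where 7.35% of genes were called (5.06% higher, 2.29% lower); 8 did not overlap, against 28.3%. Marker-high cells had 7 higher and 1 lower, where 23.4% of genes were called (14.3% higher, 9.1% lower); 8 did not overlap, against 45.4%. Marker-low cells had 6 higher and 0 lower by edgeR (1 lower at an unadjusted p under 0.05 and 1 by DESeq2, Tnfsf10 in both), where 16.8% of genes were called (10.6% higher, 6.21% lower). There 7 did not overlap, against 36.9%. Over all genes, 3579 had an unadjusted p under 0.05 in late OT-I and 5374 in marker-low cells, and DESeq2 called 2313 and 4290. These 4 comparisons share the naive libraries.

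Between the lesion groups the counts were small. Late SV40-I against late OT-I cells gave 0 higher and 2 lower (Fas and Serpinb9), where 9.02% of genes were called (4.91% higher, 4.11% lower); 3 genes were higher at an unadjusted p under 0.05 and 1, Fasl, by DESeq2. Over all 16404 genes, 3692 had an unadjusted p under 0.05 in either direction, and DESeq2 called 2453 (1364 higher). Late SV40-I and late OT-I libraries did not overlap for 7 of the 10 genes, against 29.1% of all genes tested. Marker-high against marker-low cells gave 0 higher and 1 lower (Fas), where 1.19% of genes were called (0.475% higher, 0.719% lower); 3 were higher at an unadjusted p under 0.05, and DESeq2 called 3 higher. Over all genes, 1846 had an unadjusted p under 0.05 there in either direction, and DESeq2 called 722 (329 higher). Libraries did not overlap for 5 genes, against 16.3%. Late SV40-I against marker-high cells gave 1 higher (Ctsw) and 1 lower (Fas), where 5.33% of genes were called (1.76% higher, 3.57% lower), and 5 did not overlap, against 27.2%. The labels give late SV40-I cells no marker gate, so day and gate cannot be told apart in that comparison. In culture, TOX-GFP against GFP gave 0 of 10 by edgeR, where 0% of 14614 genes were called; 4 of the 10 genes, all higher, had an unadjusted p under 0.05 and DESeq2 called 2, while over all genes 1906 had an unadjusted p under 0.05 and DESeq2 called 560. There 5 did not overlap, against 47.3%. Tox, the transferred gene, had the smallest p of all 14614 genes in culture (2.96 on the log2 scale). It was not called either (edgeR adjusted p = 0.207), so the lack of calls in culture does not show a lack of change. GFP against naive cells gave 3 higher and 2 lower, where 32.6% of 18608 genes were called (17.6% higher, 15% lower) and 8 did not overlap, against 59.8%. In that comparison 3268 of 6057 calls over all genes were higher, and 4079 of 6053 with scaling by library totals alone, which moved the median of all genes from 0 to 0.26 (log2) and also called Srgn higher (0.76, adjusted p = 0.0261).

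**Figure D2:**
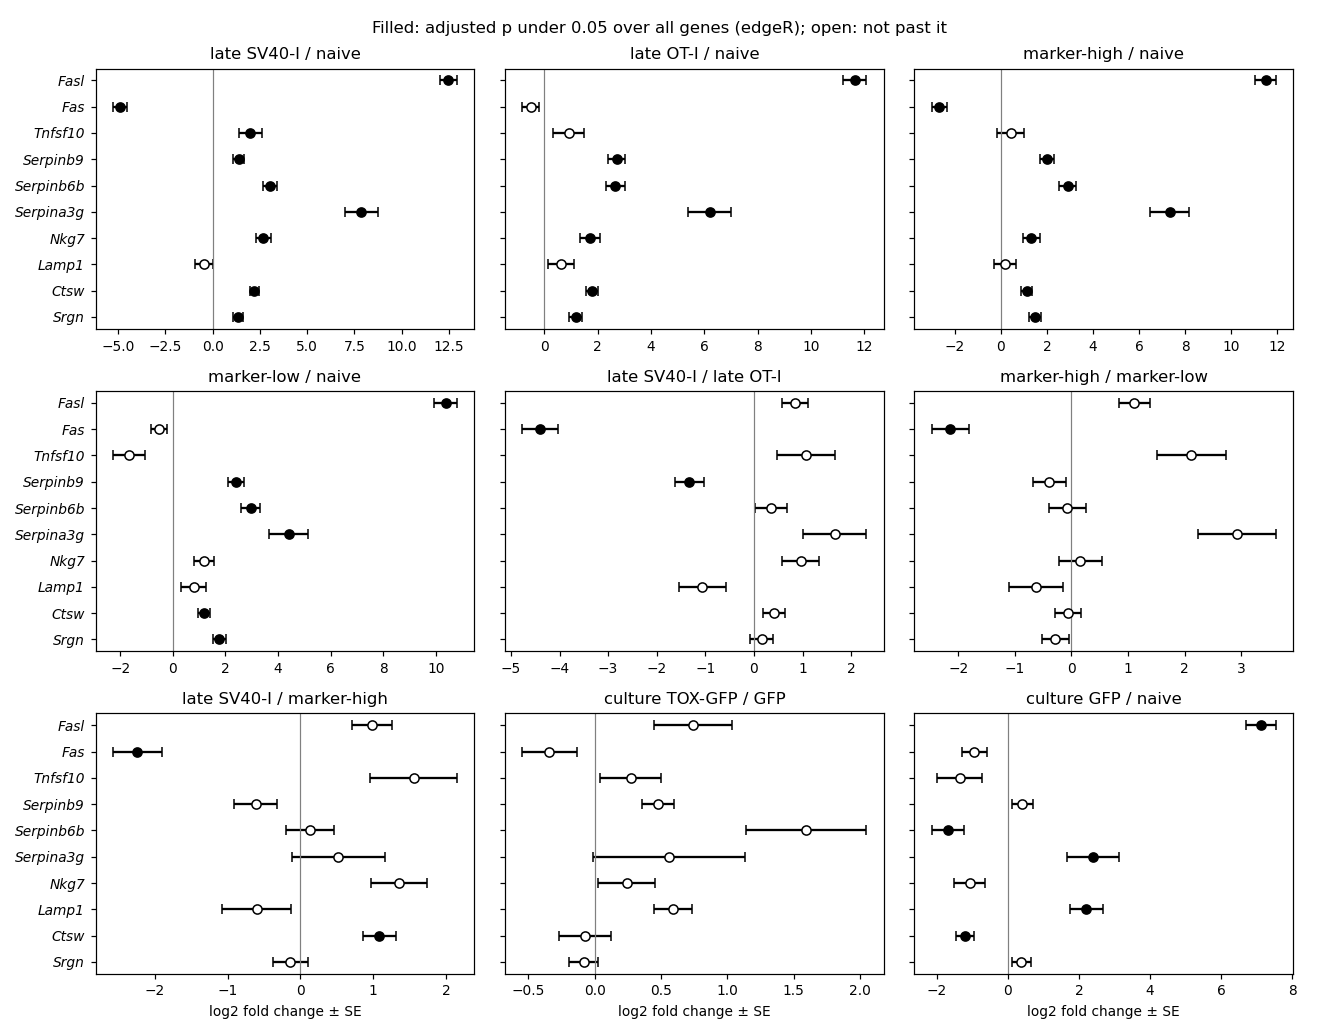
Each panel is a comparison; points are log2 fold changes (first group over second) with their SE, filled where the adjusted p was under 0.05, and the horizontal axes differ between panels. Fas is the point on the low side that is filled in 5 of the 9 panels, and no point is filled for TOX-GFP against GFP.

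Fasl (chromosome 1, 161780689 to 161788495, minus strand) encodes the membrane ligand that trimerises FAS on a target cell. In naive cells it had 7, 4 and 5 counts, or 0.136, 0.0876 and 0.109 CPM. Late SV40-I libraries held 526, 679 and 648 CPM, and late OT-I libraries 374, 397 and 307 CPM. Marker-high libraries held 235, 245 and 485 CPM, and marker-low libraries 169, 104 and 165 CPM. Every lesion library thus stood above every cultured library, where TOX-GFP cells held 35.2 and 33.7 CPM and GFP cells 26.5 and 14.6 CPM, and every cultured library above every naive one. The change against naive cells was 12.48 ± 0.46 (SE, log2; adjusted p = 1.39e-08, edgeR) in late SV40-I, 11.63 in late OT-I, 11.49 in marker-high cells, with 10.38 in marker-low cells; in the first 3 it had the smallest p of all 16404 genes, and the fitted folds lean on the prior count because naive cells were near the limit of 3 counts. GFP cells stood 7.11 above naive cells (adjusted p = 9.12e-08).

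Among lesion groups the mean of Fasl was highest in late SV40-I, then late OT-I, marker-high and marker-low cells, and none of the 3 differences tested was called in the edgeR fit of all 15 ex vivo libraries. Late SV40-I libraries lay above all late OT-I libraries by 0.84 ± 0.27 (SE, log2; edgeR adjusted p = 0.0792) and above all marker-high libraries by 0.99 (adjusted p = 0.0575, but 1.42 and 0.00209 without marker-high library 3). Marker-high lay above marker-low libraries by 1.11 ± 0.28 (adjusted p = 0.0815). DESeq2 called all 3 of these differences, with adjusted p-values of 0.0371, 0.0125 and 0.012. An edgeR fit of the late groups alone called Fasl higher in SV40-I than in OT-I cells (0.0173), and a stricter filter on low counts (a minimum of 50) called it higher than in marker-high cells (0.0418). In culture the TOX-GFP libraries lay above the GFP libraries by 0.74 (edgeR adjusted p = 0.377). Without GFP library 1 the change was 1.24, with GFP library 2 alone left in its group.

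The RefSeq promoter of Fasl (chr1:161788446-161788745, minus strand, GRCm38.p6; 250 bases before to 50 after the start) is shown because the gene had the widest range of the 10. Capitals mark GGAAA or its reverse complement, the core bound by NFAT, the factor that T cell receptor signalling activates.
Fasl: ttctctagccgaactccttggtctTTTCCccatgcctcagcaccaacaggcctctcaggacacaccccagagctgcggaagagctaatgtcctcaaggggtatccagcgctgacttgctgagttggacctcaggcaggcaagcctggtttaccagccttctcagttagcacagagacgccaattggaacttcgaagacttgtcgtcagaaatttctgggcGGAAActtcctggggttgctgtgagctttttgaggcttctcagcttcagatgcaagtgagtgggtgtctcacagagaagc
The matches begin 226 and 30 bases before the start. GGAAA on either strand was held by all 9 genes that had a promoter in the table (Ctsw had no entry), and by 61.3% of 32851 promoters of this length.

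Fas (chromosome 19, 34290659 to 34327770, plus strand) encodes the receptor for FASL, whose death domain recruits FADD and caspase-8. Naive libraries held 53.5, 54.4 and 51.8 CPM. Late OT-I libraries held 34.1, 36.6 and 40.4 CPM. Late SV40-I libraries held 1.27, 1.44 and 2.31 CPM. All 3 late SV40-I libraries lay below every other library of the series, and late OT-I libraries lay below the naive ones without overlap. Marker-high libraries held 10.9, 7.32 and 6.36 CPM, and marker-low libraries 28.4, 25.1 and 53.8 CPM, so marker-high libraries lay between late SV40-I and marker-low libraries with no overlap on either side. Cultured cells held 32.1 and 24.8 CPM with TOX-GFP and 31.9 and 40.1 CPM with GFP, which overlap.

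Fas fell by 4.91 on the log2 scale in late SV40-I against naive cells (adjusted p = 2.97e-06, edgeR) and by 4.40 ± 0.37 (SE) against late OT-I cells (adjusted p = 1.65e-05), a ratio of mean CPM of 22.1 between OT-I and SV40-I. It fell by 2.67 in marker-high against naive cells (adjusted p = 0.000133). Late SV40-I cells held less than marker-high cells by a log2 change of -2.24 (adjusted p = 0.00222, and 0.058 in a fit of these 2 groups alone). Marker-high against marker-low gave -2.14 ± 0.33 (adjusted p = 0.0108), which was not called with the replicate number of the column headings as a block (the heading block, 0.0954) or in a fit of these groups alone (0.121). Against naive cells the change was -0.51 in late OT-I (adjusted p = 0.405), -0.53 in marker-low (0.267) and -0.94 in GFP cells (0.0526, but 0.019 by DESeq2, 0.0479 with the stricter filter and 0.0139 in a fit of these groups alone), and TOX-GFP against GFP was -0.34 (0.53).

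**Figure D3:**
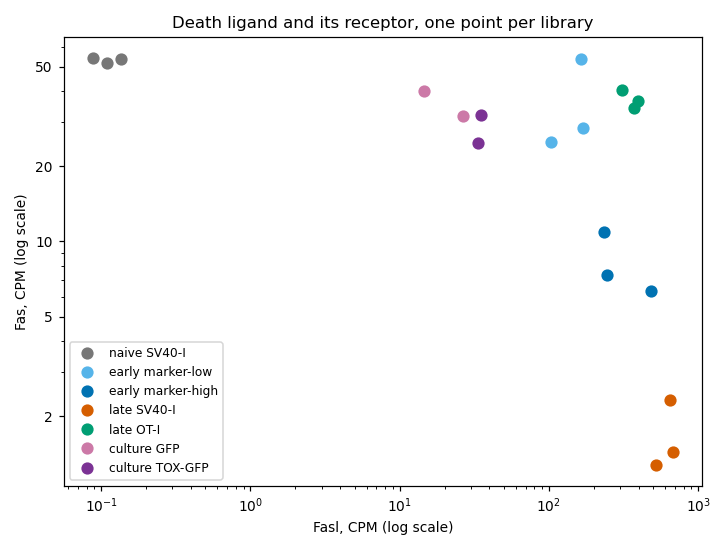
Each point is a library, with Fasl in CPM on the horizontal and Fas in CPM on the vertical log axis, coloured by group. Late SV40-I libraries sit at the lower right (Fas at most 2.31 CPM, Fasl at least 526 CPM) and late OT-I libraries at the upper right (Fas at least 34.1 CPM, Fasl at least 307 CPM).

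Tnfsf10 (chromosome 3, 27317028 to 27342427, plus strand) encodes TRAIL, whose death receptor in the mouse is Tnfrsf10b. Levels in late SV40-I libraries were 50.1, 73.8 and 85.7 CPM, and late OT-I libraries 16.2, 43.0 and 45.8 CPM. Marker-high libraries held 12.9, 18 and 42.7 CPM, marker-low libraries 4.70, 6.79 and 5.18 CPM, and naive libraries 6.69, 12.6 and 36.9 CPM. Naive library 3 stood well above the other naive ones, and the 3 late SV40-I libraries lay above all others. Late SV40-I against naive gave a rise of 1.99 ± 0.60 (SE, log2; edgeR adjusted p = 0.0373). That call was lost without naive library 1 (0.113) or 2 (0.132) and without late SV40-I library 2 (0.0779) or 3 (0.0946). It was also lost with the heading block (1.04, 0.202), with the hepatocyte marker sum as a covariate (0.153) and without the 3 hepatocyte-rich libraries (0.0986). A fit of these groups alone (0.0586) and library totals alone (0.0505) lost it too. As a covariate, here and below, a marker sum is the sum of log2(CPM + 1) over the genes of the list. The other differences were not called: 1.07 for late SV40-I against late OT-I (adjusted p = 0.318), 2.12 for marker-high against marker-low (0.143, though the libraries did not overlap and DESeq2 gave 0.013), and -1.68 for marker-low against naive (0.0727, but 0.0192 by DESeq2 and 0.0406 without naive library 1). Cultured cells held 11.5 and 10.9 CPM with TOX-GFP and 7.94 and 10.6 CPM with GFP.

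A list of 16 partners of the death receptors was read beside them. In late SV40-I against late OT-I cells 3 of the 15 tested were higher and 2 lower (4.91% and 4.11% over all genes), with a median log2 change of 0.13 against -0.04 over all genes. Tnfrsf1a, the main TNF receptor, was among the higher ones, at 497 against 129 CPM (2.00 on the log2 scale, edgeR adjusted p = 0.0182). The lower ones were Tnfrsf22, a mouse decoy receptor for TRAIL, at 1.33 against 40.4 CPM (-4.88, adjusted p = 0.00601), and Cflar, which encodes the caspase-8 inhibitor cFLIP, at 20.2 against 52.0 CPM (-1.27). These 3 were named after their values were seen. In marker-high against marker-low cells 1 of 15 was called (1.19% over all genes). Against naive cells 5 were higher and 4 lower in late SV40-I, 3 and 0 in late OT-I, 5 and 3 in marker-high cells, with 4 and 1 in marker-low cells; over all genes 18%, 7.35%, 23.4% and 16.8% were called. The mouse TRAIL receptor Tnfrsf10b was at 0.292 CPM in late SV40-I and 3.05 CPM in naive cells (-3.29, adjusted p = 0.00814), and was again lower than in marker-high cells, 1 of the 2 partners called there, with Casp6 higher. GFP against naive cells had 6 of 16 higher and 2 lower (17.6% and 15% over all genes), and TOX-GFP against GFP had 0 called.

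Serpinb9 (chromosome 13, 33003250 to 33017957, plus strand) encodes an inhibitor of granzyme B that protects killer cells from their own granules. Late OT-I libraries held 278, 218 and 313 CPM, and late SV40-I libraries 77.6, 102 and 131 CPM. Marker-low libraries held 190, 210 and 233 CPM, marker-high libraries 181, 204 and 107 CPM, and naive libraries 39.9, 28.6 and 57.5 CPM. All lesion libraries lay above all naive ones, and all late SV40-I libraries below all late OT-I ones. Against naive cells Serpinb9 rose by 2.72 (adjusted p = 0.000123, edgeR) in late OT-I, 2.39 in marker-low, 2.00 in marker-high and 1.39 in late SV40-I cells (adjusted p = 0.00585, and 0.0858 with the heading block). Late SV40-I against late OT-I gave -1.33 ± 0.30 (SE, edgeR adjusted p = 0.0130). That call was lost without late OT-I library 3 (0.054), without late SV40-I library 1 (0.0616) or 2 (0.0562), and with the heading block (0.0895). Without the 3 hepatocyte-rich libraries the change was -1.45, with late OT-I library 1 alone left in its group. TOX-GFP libraries held 105 and 95.1 CPM and GFP libraries 70.8 and 72.6 CPM, without overlap (0.48 ± 0.12, adjusted p = 0.247).

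The Serpinb9 promoter (chr13:33004291-33004590, plus strand, GRCm38.p6, RefSeq) is shown because the gene was lower in late SV40-I than in late OT-I cells. Capitals mark the match to an interferon response element, searched on both strands as GAAA, any 2 bases and GAAA.
Serpinb9: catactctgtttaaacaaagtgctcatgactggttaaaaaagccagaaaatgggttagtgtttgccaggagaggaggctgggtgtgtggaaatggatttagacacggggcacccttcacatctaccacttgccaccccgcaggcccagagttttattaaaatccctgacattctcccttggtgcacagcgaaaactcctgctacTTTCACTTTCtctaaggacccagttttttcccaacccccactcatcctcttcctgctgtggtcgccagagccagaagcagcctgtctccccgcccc
The match begins 46 bases before the start. This motif was held by 3 of the 9 genes (Serpinb9, Lamp1 and Srgn, the last in promoter 2 alone) and by 3.44% of all promoters. In Lamp1 and Srgn it overlaps a GGAAA match.

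Serpinb6b (chromosome 13, 32965209 to 32979067, plus strand) encodes a serpin that in the mouse inhibits granzyme A. Lesion libraries held between 45.0 and 106 CPM: 46.8, 70.1 and 88.0 CPM in late SV40-I, 61.5, 58.6 and 46.3 CPM in late OT-I, 51.0, 55.5 and 86.0 CPM in marker-high, and 45.0, 49.3 and 106 CPM in marker-low libraries. The 4 lesion groups overlap one another and all lie above the naive libraries, which held 7.54, 9.22 and 9.73 CPM. The rises against naive cells ran from 2.67 in late OT-I to 3.03 in late SV40-I cells (edgeR adjusted p from 8.95e-05 to 0.00038). GFP libraries held 2.07 and 4.99 CPM, below naive cells by a log2 change of -1.69 (edgeR adjusted p = 0.00921). Without GFP library 1 that change was -1.09, with GFP library 2 alone left in its group. TOX-GFP libraries held 8.84 and 12.6 CPM, above both GFP libraries by 1.59 ± 0.45 (SE, edgeR adjusted p = 0.277, DESeq2 0.0104). Without GFP library 2 the TOX-GFP change was 2.34, with GFP library 1 alone left in its group.

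Serpina3g (chromosome 12, 104236245 to 104241939, plus strand) encodes Spi2A, which in the mouse inhibits lysosomal cathepsins that reach the cytosol. Late SV40-I libraries held 2111, 1565 and 1390 CPM, and late OT-I libraries 434, 521 and 723 CPM. Marker-high libraries held 418, 727 and 2511 CPM, and marker-low libraries 207, 147 and 114 CPM. The 3 marker-high libraries span a 6.01-fold range, and library 3, the highest of the series for this gene, is also the marker-high library with the most Fasl and Tnfsf10 and the least Serpinb9. Naive libraries held 15.8, 3.83 and 3.43 CPM. Serpina3g rose against naive cells by 7.86 ± 0.87 (SE, log2) in late SV40-I (edgeR adjusted p = 5.62e-05), 7.34 in marker-high, 6.20 in late OT-I and 4.41 in marker-low cells (adjusted p = 0.0018). Late SV40-I lay above late OT-I libraries by 1.66 (adjusted p = 0.152, and 0.0106 in a fit of these groups alone), and marker-high above marker-low by 2.93 ± 0.69 (adjusted p = 0.0653, 0.0399 without marker-high library 1, 0.0452 with the stricter filter and 0.000337 by DESeq2), in both cases with no overlap. Cultured cells held 117 and 39.2 CPM with TOX-GFP and 71.8 and 34.0 CPM with GFP. GFP cells lay above naive ones by 2.40 (edgeR adjusted p = 0.0212), a call lost without naive library 2 (0.0764) or 3 (0.074). Without GFP library 1 the change was 1.87, with GFP library 2 alone left in its group. Serpina3g belongs to a cluster of close copies, and Serpinb9 and Serpinb6b have neighbours of similar sequence, so reads shared between copies leave their counts uncertain.

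The promoter of Serpina3g (chr12:104235897-104236196, plus strand, GRCm38.p6, RefSeq) is shown because it held the most GGAAA matches of the 9 genes, marked in capitals on either strand.
Serpina3g: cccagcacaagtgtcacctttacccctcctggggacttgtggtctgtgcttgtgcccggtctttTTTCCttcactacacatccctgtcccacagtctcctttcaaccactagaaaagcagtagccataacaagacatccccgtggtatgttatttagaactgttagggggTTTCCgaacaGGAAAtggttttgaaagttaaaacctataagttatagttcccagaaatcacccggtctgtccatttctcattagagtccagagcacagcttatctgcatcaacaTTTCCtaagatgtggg
The 4 matches begin 186, 80 and 70 bases before and 34 bases after the start.

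**Figure D4:**
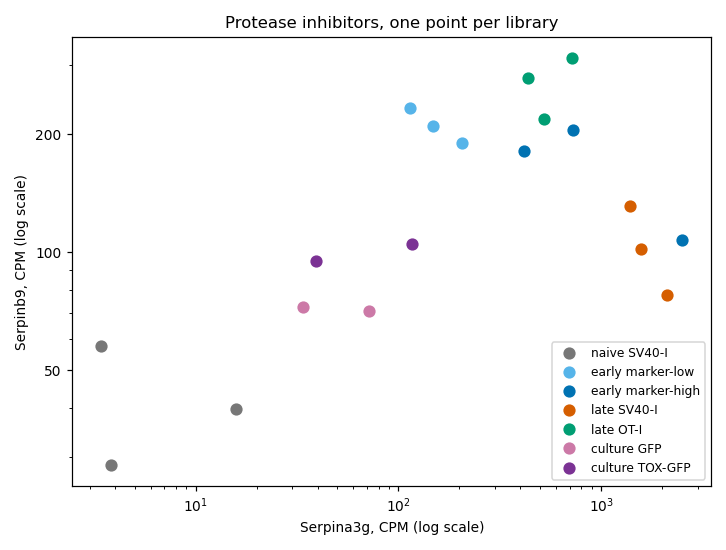
Each point is a library, with Serpina3g on the horizontal and Serpinb9 on the vertical log axis, both in CPM. The late OT-I group has the highest mean of Serpinb9 (its libraries at 218 to 313 CPM overlap the marker-low ones at 190 to 233 CPM), and the late SV40-I libraries have 1390 to 2111 CPM of Serpina3g with at most 131 CPM of Serpinb9, next to marker-high library 3.

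Of 15 other serpins of the same clades, 9 were tested in the ex vivo fit. Serpinb6a, a close relative of Serpinb6b, was the only one called in late SV40-I against late OT-I cells, at 66.4 against 26.8 CPM (1.38 ± 0.25 SE, edgeR adjusted p = 0.00431); 4.91% of all genes were called higher there, and the list's median log2 change was 0.71 against -0.04 over all genes. No serpin of the list was called in marker-high against marker-low or in late SV40-I against marker-high cells. Against naive cells 4 rose in late SV40-I and 2 each in late OT-I, marker-high and marker-low cells, and none fell; the shares of all genes called higher were 11.1%, 5.06%, 14.3% and 10.6%. Serpina3f, the neighbour of Serpina3g in sequence, was among those that rose in all 4 groups, from 0.655 CPM in naive to 82.6 CPM in late SV40-I cells (7.04, adjusted p = 0.00118). Serpina3k, which the liver expresses, was called in the late groups, whose libraries hold the hepatocyte markers given above; its levels were 22.2 CPM in late SV40-I and 36.4 CPM in late OT-I cells, and the part of hepatocyte RNA in them was not tested.

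Nkg7 (chromosome 7, 43437073 to 43438249, plus strand) encodes a membrane protein of cytotoxic granules that is needed for degranulation. Levels in late SV40-I libraries were 6465, 8425 and 8506 CPM, late OT-I libraries 4586, 3361 and 4461 CPM, and marker-high libraries 3060, 3309 and 3103 CPM. Marker-low libraries held 4127, 1202 and 2911 CPM; library 2, the lowest, also has the most macrophage markers (8715 CPM) and the fewest CD8 T cell markers (4821 CPM) of the ex vivo libraries. Naive libraries held 1201, 1820 and 813.5 CPM. Late SV40-I libraries lay above all others. Nkg7 rose against naive cells by 2.68 in late SV40-I (edgeR adjusted p = 0.000543), 1.72 in late OT-I (0.0169) and 1.33 in marker-high cells (0.0262). The late OT-I call was lost without naive library 1 (0.0704) or 3 (0.0739) or late OT-I library 1 (0.0553) or 3 (0.0504), and the marker-high call without naive library 1 (0.0792) or 3 (0.102) or marker-high library 1 (0.0592) or 2 (0.0686). With the heading block these calls were lost too (0.0634 and 0.0517). The late OT-I call was further lost with the hepatocyte marker sum as a covariate (1.90, edgeR adjusted p = 0.0593). Without the 3 hepatocyte-rich libraries the late OT-I change was 1.94, with late OT-I library 1 alone left in its group. The marker-high call was lost with the macrophage marker sum as a covariate (1.55, edgeR adjusted p = 0.145). Macrophage markers did not overlap between marker-high (4038 to 5971 CPM) and naive libraries (114 to 288 CPM), so that fit separates markers from group poorly. Marker-low against naive gave 1.17 (0.0544, but 1.47 and 0.00927 without marker-low library 2, 0.0388 without naive library 2, and 0.0205 by DESeq2). Late SV40-I against late OT-I gave 0.96 ± 0.38 (SE; adjusted p = 0.153) and against marker-high 1.35 (0.0625), both without overlap. Fits of the compared groups alone called both (0.0285 and 0.0128), and DESeq2 called the difference from marker-high cells (0.00717). TOX-GFP libraries held 1036 and 850 CPM and GFP libraries 954 and 640 CPM.

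Ctsw (chromosome 19, 5465240 to 5468498, minus strand) encodes cathepsin W, a cysteine protease made chiefly by CD8 T and natural killer cells. Levels in late SV40-I libraries were 2290, 1990 and 2106 CPM and late OT-I libraries 1722, 1501 and 1792 CPM. Marker-high libraries held 1089, 939 and 1090 CPM, marker-low libraries 1379, 754 and 1034 CPM, and naive libraries 519, 563 and 387 CPM. Libraries of the naive, early and late groups did not overlap, except that marker-high libraries lie within the marker-low range. Against naive cells Ctsw rose by 2.20 in late SV40-I (edgeR adjusted p = 4.38e-05), 1.79 in late OT-I, 1.17 in marker-low and 1.11 in marker-high cells. The marker-high rise was not called with the macrophage marker sum as a covariate (1.23, edgeR adjusted p = 0.0555). Macrophage markers did not overlap between marker-high libraries and naive or late SV40-I ones. Fits of these comparisons with that covariate thus separate markers from group poorly. Late SV40-I exceeded marker-high cells by 1.09 ± 0.23 (SE; adjusted p = 0.0158), a call lost without late SV40-I library 1 (0.0511) or 3 (0.0532), marker-high library 1 (0.0585) or 2 (0.0879), without the 3 hepatocyte-rich libraries (0.0576), with the heading block (0.0514) and with the macrophage covariate (0.97, 0.195). GFP libraries held 318 and 235 CPM, below naive cells by a log2 change of -1.21 (edgeR adjusted p = 0.00228). Without GFP library 2 that change was -0.96, with GFP library 1 alone left in its group. TOX-GFP libraries held 296 and 231 CPM.

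Srgn (chromosome 10, 62493833 to 62527451, minus strand) encodes serglycin, which is also made by myeloid cells. Naive libraries held 176, 229 and 152 CPM, below every other library. Marker-low libraries held 711, 394 and 714 CPM, marker-high libraries 403, 542 and 583 CPM, late SV40-I libraries 365, 466 and 511 CPM, and late OT-I libraries 404, 450 and 404 CPM. Marker-low library 2 has the least Srgn of its group. It has the most macrophage markers and also the fewest CD8 T cell markers (4821 CPM) of the ex vivo libraries. With the macrophage marker sum as a covariate, Srgn stayed called against naive cells in marker-high and marker-low cells. Macrophage markers did not overlap between these groups and naive cells, so that fit separates markers from group poorly. How much of Srgn is myeloid RNA was not tested. The 4 lesion groups overlap. Srgn rose against naive cells in all 4, by 1.77 in marker-low (edgeR adjusted p = 0.000522), 1.48 in marker-high, 1.34 in late SV40-I and 1.19 in late OT-I cells (0.00962). The late OT-I call was lost without naive library 3 (0.0511), with the hepatocyte covariate (0.0515) and with the heading block (0.0573). Without the 3 hepatocyte-rich libraries the late OT-I change was 1.21, with late OT-I library 1 alone left in its group. Cultured libraries held 289 to 329 CPM.

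Lamp1 (chromosome 8, 13159161 to 13175338, plus strand) encodes the lysosomal membrane protein that appears on the cell surface on degranulation. TOX-GFP libraries held 86.6 and 95.6 CPM and GFP libraries 55 and 66.1 CPM. Naive libraries held 13.7, 7.36 and 9.25 CPM, marker-low libraries 13.9, 18.7 and 18.1 CPM, marker-high libraries 13, 12 and 8.24 CPM, and late OT-I libraries 8.78, 17.1 and 20.6 CPM. Late SV40-I libraries held 3.55, 13.7 and 4.27 CPM. The high one, library 2, has the most hepatocyte markers of that group (1267 CPM). It also has the most macrophage (1092 CPM), neutrophil (797 CPM) and B cell (90.0 CPM) markers of that group. Which of these goes with its Lamp1 level was not tested. No ex vivo library reached the level of any cultured one. GFP cells lay above naive cells by 2.21 ± 0.47 (SE, log2, edgeR adjusted p = 0.00209), and TOX-GFP above GFP cells by 0.59 ± 0.14 (edgeR adjusted p = 0.247, DESeq2 0.0246). Without GFP library 2 the TOX-GFP change was 0.71, with GFP library 1 alone left in its group. None of the ex vivo comparisons called Lamp1; late SV40-I against late OT-I gave -1.06 (0.208), and -1.90 (0.0221) without late SV40-I library 2. With the hepatocyte marker sum as a covariate, late SV40-I lay below naive cells by a log2 change of -1.53 (0.0262) and below marker-high cells by one of -1.47 (0.0464), against -0.44 and -0.60 without it. Lamp1 overlaps Grtp1 on the other strand, which had at most 2.81 CPM in any library.

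The Lamp1 promoter (chr8:13158911-13159210, plus strand, GRCm38.p6, RefSeq) is shown because the gene's pattern differs from that of the other granule genes. Capitals mark CACGTG, the palindromic E-box at the centre of the motif that lysosomal genes share.
Lamp1: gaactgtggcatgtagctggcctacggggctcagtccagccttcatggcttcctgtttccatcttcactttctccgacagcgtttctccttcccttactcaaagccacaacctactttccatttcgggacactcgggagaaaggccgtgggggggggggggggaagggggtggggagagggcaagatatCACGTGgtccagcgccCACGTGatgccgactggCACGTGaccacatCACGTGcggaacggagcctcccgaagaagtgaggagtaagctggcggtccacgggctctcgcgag
The 4 matches begin 61, 45, 28 and 15 bases before the start. CACGTG was otherwise held, among the 9 genes, by Fas (110 bases before the start), and by 7.15% of all promoters. A RUNX site searched as TGTGGT on both strands was held by 5 of the 9 genes (Srgn in promoter 2 alone) and by 16.8% of all promoters.

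Lists of the granule machinery were read beside these genes. Of 13 genes of granule exocytosis tested, 2 were higher in late SV40-I than in late OT-I cells and none lower: Stxbp2, which encodes the syntaxin partner Munc18-2, at 582 against 296 CPM (1.04 ± 0.19 SE, edgeR adjusted p = 0.0034), and Unc13d, which encodes the priming factor Munc13-4, at 666 against 447 CPM (0.64, adjusted p = 0.0436). Over all genes 4.91% were called higher. The median of the list was 0.13 against -0.04 over all genes. None was called in marker-high against marker-low cells. Against naive cells 6 rose in late SV40-I, 4 in late OT-I, 3 in marker-high cells, with 1 in marker-low cells, where 1 also fell; over all genes 11.1%, 5.06%, 14.3% and 10.6% were called higher. Stx11, which encodes a syntaxin of granule fusion, was among those that rose in all 4 groups, from 1.00 CPM in naive to 21.8 CPM in late SV40-I cells (4.54, adjusted p = 0.00035).

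Of 9 lysosomal and granule proteases, 3 were higher in late SV40-I than in late OT-I cells and none lower, where 4.91% of all genes were called higher. Ctsb, which encodes the cathepsin B that Spi2A inhibits, stood at 2610 against 940.4 CPM (1.53 ± 0.26 SE, edgeR adjusted p = 0.00227), and Ctsa, a carboxypeptidase, at 1575 against 841 CPM (0.96, adjusted p = 0.0116); the other was Ctsc, which activates granzymes. Against naive cells 6 rose in marker-high cells, with 4 in marker-low cells (14.3% and 10.6% of all genes were called higher), among them Ctsh and Lgmn, proteases also made by macrophages, whose markers were highest in these 2 groups; the part of macrophage RNA was not tested. In GFP against naive cells 7 of 9 were lower and none higher, where 15% of all genes were called lower and 17.6% higher. Of the granzymes and perforin, Gzma was higher (2570 against 499 CPM) and Gzmm lower (1.26 against 220 CPM) in late SV40-I than in late OT-I cells, and Gzma (4.70) and Gzmb (3.23) were higher and Gzmm lower in marker-high than in marker-low cells, out of 6 tested; over all genes 9.02% and 1.19% were called in these comparisons.

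Levels of different genes were compared per length in TPM, which divides each count by the gene's exon length before scaling. Nkg7, Ctsw and then Serpina3g or Srgn led the 10 genes in every group. Nkg7 reached 22537 ± 2485 TPM in late SV40-I cells, rank 3 of all 53656 genes there, and was 4th in late OT-I, 7th in marker-high, 8th in marker-low, 19th in TOX-GFP, 25th in naive and 33rd in GFP cells. In late SV40-I cells the order went on with Ctsw (4592 ± 523 TPM), Serpina3g (2141 ± 571), Fasl (843 ± 77) and Srgn (538 ± 72). Serpinb6b (79.5 ± 21.8) and Serpinb9 (78.2 ± 18.2) did not differ beyond their spread, followed by Tnfsf10 (35.0 ± 8.0), Lamp1 (7 ± 5.33) and Fas (2.45 ± 0.77). In late OT-I cells Srgn (549 ± 48) and Fasl (534 ± 78) did not differ beyond their spread, and Fas stood at 59.0 ± 5.1 TPM. In naive cells Fas had rank 4 of the 10, at 79.3 ± 6.6 TPM, and Fasl last, at 0.155 ± 0.044 TPM.

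**Figure D5:**
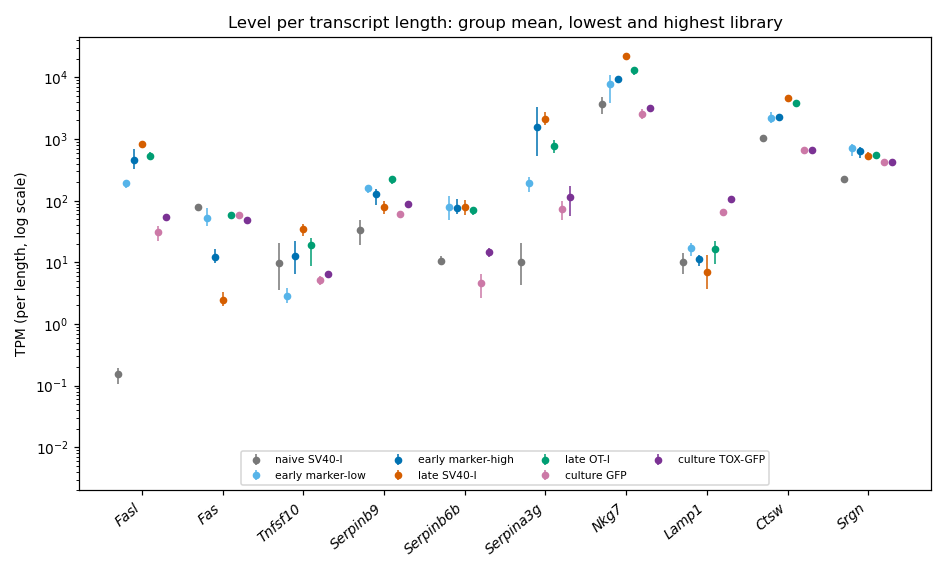
Points are group means in TPM on a log axis for the 10 genes, and lines run from the lowest to the highest library of the group. Nkg7 is the highest gene in every group, and Fasl in naive cells (0.155 TPM) is the lowest point.

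The genes whose group means were most like each of the 10 were found by Pearson's r of log2(CPM + 1) over the 7 groups among 9580 genes with at least 10 CPM in some group; with 7 points and so many genes, high values are given as a description. Fasl was most like Pik3ap1 (r = 0.993) and Zcchc18 (0.991). Fas was most like Pdlim1 (0.993) and Kbtbd11 (0.988); Pdlim1 stood at 2.12 CPM in late SV40-I, 32.0 in marker-high, 161 in late OT-I and 320 CPM in naive cells. Serpina3g was most like Entpd1 (0.993), which encodes CD39, a marker of the early gate, and Serpina3f (0.989). Serpinb9 was most like Anxa1 (0.973) and Samd3 (0.948), both highest in late OT-I cells. Lamp1 was most like Tm6sf1 (0.998) and Atp10a (0.993), both highest in TOX-GFP cells. Nkg7 was most like Rgs3 (0.989) and the clone-named RP23-83I13.10 (0.987), Ctsw like RP23-83I13.10 and Prss30 (0.993 each), Srgn like Ccdc124 (0.972) and Ifng (0.971), Serpinb6b like Ehbp1l1 (0.99) and Cd160 (0.979), and Tnfsf10 like Nbas (0.985) and Arrb2 (0.963). Among the 10 genes themselves the most alike pairs were Ctsw with Nkg7 (0.983) and Serpina3g with Fasl (0.964), and the least alike was Ctsw with Lamp1 (-0.816).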

How the data were processed

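RNA sequencing of 19 libraries in 7 groups was analysed, grouped by the labels alone. The deposited values are whole-number counts of read pairs per gene, not normalized; the authors made them with featureCounts 1.6.2 in paired mode with no strand option, per the file headers, which also name GENCODE M17 and GRCm38. FastQC, STAR and DESeq2 are named in the submitters' processing notes, without versions. RNA was amplified with a SMART-seq kit, per the labels' protocols, with no molecular identifiers, so floors cover counting error only. Reads of an overlapping gene cannot be told apart without strand.

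From the counts, CPM and TPM were computed, the latter with the exon length listed in each table, and edgeR 4.0.16 (R 4.3.3; TMM scaling, filterByExpr, robust quasi-likelihood F test) was fitted to the 15 ex vivo libraries together (16404 genes), to the 4 cultured libraries (14614) and, for GFP against naive cells, to all 19 (18608); culture and batch cannot be told apart from group there. Adjusted p-values are Benjamini-Hochberg over all genes. In the last fit, TMM factors ran from 0.900 to 1.24, so its folds are below the CPM ratios: library totals alone moved the median of all genes to 0.26 (log2) and the calls from 3268 higher and 2789 lower to 4079 higher among 6053. SEs come from the F statistic and are approximate near 0 counts. The test was tried on simulated counts with known changes and the same spread for every gene, so that trial does not show its power in these data.

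The genes, the related lists and the motifs were chosen with earlier results of these data known. The genes named were all 10 in each comparison, Tox, the 2 called members with the smallest p of each related list in the comparisons between the late groups, between the early groups and between the cultured groups, and the 2 genes most like each of the 10; others are examples chosen after their values were seen. Some genes that this rule names are not reported here. Vamp7, of the exocytosis list, was not analysed here. Library pairs within groups differed by more than counting noise (chi-square over its degrees of freedom, 29.9 to 485), so each was kept. No label ties replicates to different animals or cultures, and the spread behind each p-value may therefore be technical. Of the marker-high and naive libraries, 6 of 6 best matched the same title number in the other group (r of deviations 0.175 to 0.313, 3 pairs). The same held in late SV40-I against naive (0.0506 to 0.114) and against marker-high cells (0.0885 to 0.224). In culture it held for 4 of 4 libraries, with r = 0.176 for each pair. This pairing is from the data and not from the labels. A fit blocked by title number changed no call of the 10 genes in these comparisons with naive cells or in culture. It called Tnfsf10 higher in late SV40-I than in marker-high cells (edgeR adjusted p = 0.0357). Promoters are RefSeq's on GRCm38.p6 and matched 9 of 10 genes by symbol. Alternatives were DESeq2 1.42.0, its size factors, other filters, blocks, fits of the compared groups alone, marker sums of log2(CPM + 1) as covariates, library totals alone, and leaving out each library or the 3 hepatocyte-rich ones. Library totals alone, leaving out the hepatocyte-rich libraries and the macrophage covariate were chosen after seeing the data.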

Additional observations from a re-analysis of the deposited data

How the results depend on the processing

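Of 1340 alternative values for the 90 gene and comparison pairs, 1256 kept their side of the threshold, 48 lost a call, 36 gained one and 0 called values changed sign; 22 uncalled values did. The count of called genes among the 10 moved by more than 1.5 times as follows. For late SV40-I against late OT-I cells it was 2, and 1 with the number in the column headings as a replicate block, 5 in a fit of these groups alone, and 1 to 2 with a library left out. The fit without the 3 hepatocyte-rich libraries kept late OT-I library 1 alone in its group, so its count is not given. For marker-high against marker-low cells it was 1, and 4 with DESeq2, 2 with the stricter filter, 0 with the heading block, 0 in a fit of these groups alone, and 1 to 2 with a library left out. For late SV40-I against marker-high cells it was 2, and 4 with DESeq2, 1 with the heading block, 1 without the 3 hepatocyte-rich libraries, 1 with the macrophage covariate, and 1 to 3 with a library left out. For TOX-GFP against GFP it was 0, and 2 with DESeq2. Counts with a cultured library left out are not given, since such fits leave that group without a replicate. The other comparisons stayed within 1.5 times. The cause was not tested.

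Over all genes, calls for late SV40-I against late OT-I were 1479, and 2453 with DESeq2, 963 with the heading block and 872 to 1111 with a library left out. Marker-high against marker-low gave 196, and 722 with DESeq2, 25 with the heading block, 4 in a fit of these groups alone, 79 with the macrophage covariate and 38 to 159 with a library left out. Late SV40-I against marker-high gave 874, and 2158, 353, 325, 280 without the hepatocyte-rich libraries, 168 with the macrophage covariate and 311 to 1669. Late OT-I against naive gave 1206, and 2313 with DESeq2, 727 with the heading block, 641 with the hepatocyte covariate and 773 to 861 with a library left out. Marker-high against naive gave 3841, and 1333 with the macrophage covariate and 2414 to 3581 with a library left out. Marker-low against naive gave 2754, and 4290 with DESeq2, 1633 with the macrophage covariate and 1402 to 2174 with a library left out. Late SV40-I against naive gave 2954, and 2064 to 2350 with a library left out. GFP against naive gave 6057, and 5086 to 5324 with a naive library left out. TOX-GFP against GFP gave 0, and 560 with DESeq2 and 6 with no filter. Fits with a cultured library left out leave that group without a replicate, and their counts are not given.

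Where title numbers did not pair samples, the title block moved the counts over all genes little (1479 to 1430 for late SV40-I against late OT-I, 196 to 144 for marker-high against marker-low). Under the title block Tnfsf10 became called in marker-low against naive cells (edgeR adjusted p = 0.0461), where title numbers did not pair libraries. It also became called in late SV40-I against marker-high cells (0.0357), where they did. The counts there were 7 and 3. A block by heading number could not be fitted for GFP against naive cells. Depth limits Fasl in naive cells, at 4 to 7 counts a library.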
